A study of Mus musculus with 26 samples.

Results

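The genes described here are 10 genes that mouse embryos transcribe at the two-cell stage, namely *Dux*, *Zscan4b*, *Zscan4c*, *Zscan4d*, *Zscan4e*, *Zscan4f*, *Tcstv1*, *Tcstv3*, *Zfp352* and *Tmem92*. They were listed by symbol, by a rule that sets no threshold on their values, and were looked up in the expression table of the ES cell lines. Of the 10 symbols, 9 had a row among the 24409 genes of the table, and *Zscan4e* had none.

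DUX is a double homeobox transcription factor that appears as the embryonic genome is first switched on, and it activates the *Zscan4* genes, *Tcstv1*, *Tcstv3*, *Zfp352*, *Tmem92* and the LTRs of the retrovirus MERVL. The ZSCAN4 proteins carry a SCAN domain and zinc fingers and are linked to telomere maintenance. In cultures of ES cells, which resemble the later inner cell mass, only a small and changing share of cells passes through a state in which these genes are on. KAP1 and H3K9me3 restrain this state, and ZFP57 is a KRAB zinc finger protein that brings KAP1 to methylated copies of the hexanucleotide TGCCGC.

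The study compared male ES cell lines on the C57BL/6J background that were wild type (WT) or homozygous for a targeted disruption of *Zfp57* (KO), directed at coding exons 4 and 5. The KO was zygotic, so that the embryos had a mother with a working *Zfp57* allele. Lines of both genotypes were derived from the inner cell mass of embryos that had been collected as morulae at E2.5 and cultured further, and were grown in 2i (the inhibitors PD0325901 and CHIR99021) with LIF, up to passage 15 at most. RNA was sequenced in paired reads of 150 bp from 3 WT and 2 KO samples. ZFP57 ChIP-seq used reads of 100 bp, also from 3 WT and 2 KO samples. Each library is labelled as an ES cell sample of its own, and nothing in the labels ties a KO line to a WT line of the same litter.

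*Zfp57* itself stood at 70.6 to 75.9 FPKM (n = 3) in WT, and in KO at 19 and 21.6 FPKM. The paper reports that ZFP57 protein was absent from the mutants by western blot. Which part of the gene the remaining RNA covers cannot be told from a value per gene. The ES cell markers (7 genes, among them *Pou5f1*, *Sox2* and *Nanog*) summed to 642 to 661 FPKM in WT and to 724 and 783 FPKM in KO, as the label of both groups requires. Markers of primitive endoderm (5 genes) summed to 0.47 to 0.49 FPKM in WT and 0.72 and 1.21 FPKM in KO, those of trophoblast (4 genes) to 0.46 to 0.88 and 2.45 and 2.77 FPKM, and those of fibroblasts (4 genes) to 0.61 to 0.69 and 0.52 and 0.94 FPKM. By limma 4 of the 7 ES cell markers were called higher in KO and none lower, beside 18.8% of all tested genes called higher. *Esrrb*, 1 of the 4 (log2 fold change 0.42), lies on chromosome 12. With the median of each chromosome subtracted, *Gm5662* of the same chromosome, described below, moved from -0.99 to -1.37. This setting was not examined for *Esrrb*. Of the 13 other markers, 1 of primitive endoderm (*Sox7*) and 1 of trophoblast (*Eomes*) were called higher. These genes, *Esrrb*, *Gata4* and *Elf5* were named after their values were seen. *Sox7* was at 0.09, 0.15 and 0.11 FPKM in WT and 0.90 and 0.48 FPKM in KO, while *Gata4* of the same list was at 0.29, 0.22 and 0.26 FPKM in WT and 0.21 and 0.11 FPKM in KO. *Eomes*, at 0.51, 0.60 and 0.38 FPKM in WT and 2.13 and 2.40 FPKM in KO, made up most of the trophoblast sum in KO. *Elf5* was at 0.05, 0.06 and 0.01 FPKM in WT and at 0 in both KO libraries. In the 3 tested trophoblast markers both KO libraries were above all WT libraries, beside 30.3% of all tested genes. Of the 13, 6 stayed at or under 0.1 FPKM in every library, and none was at 0 throughout. Their part in the values below was not tested. A single fragment on 1 kb of transcript corresponded to 0.0170 to 0.0196 FPKM, which implies 50900000 to 58800000 fragments per library, and numbers of fragments given below are estimates from this step and the longest annotated transcript. The differences concern bulk RNA, in which fewer cells in the two-cell-like state and less RNA per such cell cannot be told apart.

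The copies of *Zscan4* lie side by side on chromosome 7, where the annotation of GRCm38 (mm10) holds 9 of them between positions 10794242 and 11614112. The members among them are *Zscan4b* (chr7:10900740-10905050, minus strand), *Zscan4c* (chr7:11005745-11010547, plus strand), *Zscan4d* (chr7:11161374-11166159, minus strand), *Zscan4e* (chr7:11306378-11310682, minus strand) and *Zscan4f* (chr7:11397915-11402318, plus strand). Promoter sequences from RefSeq on GRCm38 were at hand for 6 of the 10 members. The following stretches end with the TATA box, in capitals, of the 4 *Zscan4* members with a row in the table, and are shown because they make plain how alike the copies are.
Zscan4b, chr7:10905075-10905161, minus strand: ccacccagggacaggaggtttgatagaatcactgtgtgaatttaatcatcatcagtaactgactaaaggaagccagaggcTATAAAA
Zscan4c, chr7:11005611-11005697, plus strand: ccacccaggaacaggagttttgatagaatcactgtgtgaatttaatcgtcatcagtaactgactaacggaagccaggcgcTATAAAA
Zscan4d, chr7:11166207-11166293, minus strand: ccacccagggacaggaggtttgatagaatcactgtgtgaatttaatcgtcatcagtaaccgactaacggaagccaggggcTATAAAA
Zscan4f, chr7:11397804-11397890, plus strand: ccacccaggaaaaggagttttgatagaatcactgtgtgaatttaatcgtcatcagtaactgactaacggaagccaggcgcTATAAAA

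Counted from the 5′ end of these 87 bases, *Zscan4c* differed from *Zscan4f* only by A12C, whereas *Zscan4d* differed at 5 bases (A10G, A12C, T18G, T60C and C78G) and *Zscan4b* at 7 bases. The transcripts of the *Zscan4* members were 94.1 to 97.5% identical in pairwise alignment. An alignment to such copies places reads with few distinguishing bases. Of all 150-base windows within exons, 92.0% in *Zscan4f*, 86.8% in *Zscan4e*, 75.6% in *Zscan4b* and 57.2% in *Zscan4c* had another exact copy on the assembled chromosomes, compared with 10.4% in *Zscan4d*. For *Zscan4b*, *Zscan4e* and *Zscan4f* all of these windows recurred in another *Zscan4* copy of the cluster. The same measure was 20.7% for *Dux*, 18.2% for *Tcstv1* and 4.0% for *Tmem92*, and it was 0 for *Tcstv3* and *Zfp352*. The windows stand for single reads, whereas the RNA was sequenced in pairs, so the share of fragments with several positions may be lower. How reads with several equal positions were counted is not given in the sources used here, so the levels of single *Zscan4* copies are uncertain, *Zscan4d* least among them by this measure.

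**Figure D1:**
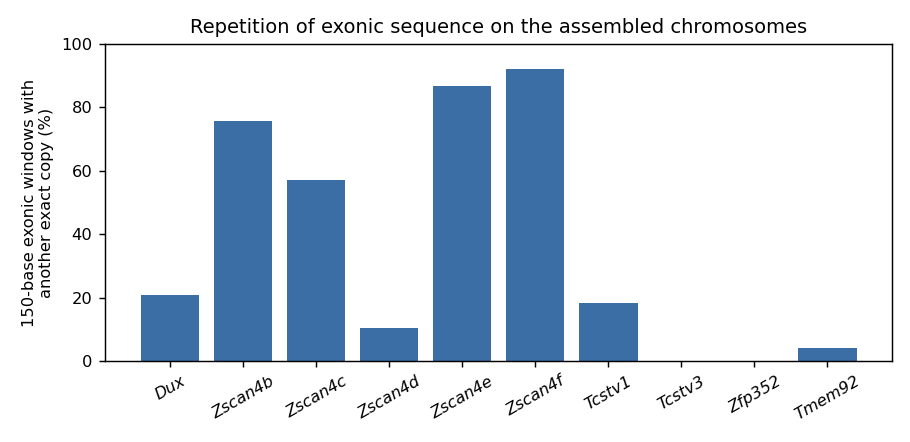
Share of the 150-base windows within the exons of each gene (y axis, in percent) that have another exact copy on the assembled chromosomes of GRCm38. The bars of *Zscan4f* (92.0%) and *Zscan4e* (86.8%) are the highest, *Zscan4d* stands at 10.4%, and *Tcstv3* and *Zfp352* are at 0.

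*Dux* lies on chromosome 10 in an array of related copies. The symbol is in neither annotation used here, and the *Duxf3* model supplied its position (chr10:58229979-58232675, minus strand, in GENCODE). A ZFP57 peak of 233 bp covered the start of this gene, at chr10:58232430-58232662. It was one of the 1423 peaks called in the C57BL/6J WT lines and was also among the 743 peaks of the list named for hybrid lines, all of which occur in the first list. The peak lay within coding sequence, from base 14 to base 246 of the 2022 coding bases of the single-exon model, in the part that encodes the N-terminal end of DUX. In a model with 2 exons the transcript starts 416 bp downstream of the peak, so that the same interval is upstream of the gene in that model. The sequence of the peak is given on the strand of *Dux*, with the hexanucleotide TGCCGC in capitals.
Dux peak, chr10:58232430-58232662, minus strand: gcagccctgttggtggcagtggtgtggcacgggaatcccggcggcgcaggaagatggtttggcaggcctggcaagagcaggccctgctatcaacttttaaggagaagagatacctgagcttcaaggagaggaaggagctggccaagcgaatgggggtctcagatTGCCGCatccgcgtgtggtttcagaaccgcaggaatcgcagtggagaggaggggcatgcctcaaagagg

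The peak held 1 copy of TGCCGC, which also occurred in 1309 of all 1423 peaks (92.0%). Of its bases 8.2% were marked as repeats in the genome sequence, and the whole interval had no second exact copy on the assembled chromosomes. However, 35.1% of its 100-base windows had one, a length equal to that of the ChIP-seq reads. The windows stand for single reads. The authors called the peaks from uniquely aligned reads with paired-end mapping, in which a mate can help to place a read. The list gives positions without a score, therefore neither the height of the peak nor its level in the KO libraries could be given. The paper places ZFP57 binding at the *Dux* promoter and reports a partial loss of H3K9me3 there in the mutants, which was not examined here.

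*Dux* was near the limit of detection in both genotypes. Its level was 0.09, 0.06 and 0.12 FPKM in WT replicates 1 to 3 and 0.03 and 0.06 FPKM in KO replicates 1 and 2. These values rest on an estimated 10, 7, 12, 3 and 7 fragments, in the same order. The lowest WT library and the higher KO library had the same value, and the other WT libraries were above both KO libraries. The means were 0.090 ± 0.030 (SD, n = 3) and 0.045 ± 0.021 FPKM (SD, n = 2), a ratio of 0.50, and an exact two-sided permutation test over libraries gave p = 0.3, where 3 libraries against 2 cannot go below 0.1. In the limma fit without a filter on low values, *Dux* had a log2 fold change of FPKM + 0.1 of -0.39 and was not called (limma adjusted p = 0.286). The 95% counting interval was 0.0627 to 0.208 FPKM for the highest WT library and 0.0066 to 0.0853 FPKM for the lowest KO library, and intervals of this kind cover counting error only.

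The *Zscan4* genes had the highest levels of the group. *Zscan4f* was measured at 0.93, 0.59 and 1.10 FPKM in WT replicates 1 to 3 and at 0.36 and 0.58 FPKM in KO replicates 1 and 2. Both KO values lay below all WT values, but WT replicate 2 and KO replicate 2 differed by only 0.01 FPKM, an estimated 63 and 58 fragments. In the limma fit across all 14612 genes whose mean reached 0.1 FPKM, the log2 fold change of FPKM + 0.1 (KO minus WT) was -0.76 (SE 0.29, 95% interval -1.46 to -0.06), and it did not pass the threshold (adjusted p = 0.080). Leaving out WT replicate 2 gave -0.99 with a limma adjusted p of 0.036, which passes. Without KO replicate 1, with a single KO library, it was -0.48 (limma adjusted p = 0.329), and without WT replicate 3 it was -0.59 (limma adjusted p = 0.196).

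*Zscan4c*, the nearest relative of *Zscan4f* in the promoter stretch, followed the same order. Its values were 0.74, 0.54 and 0.99 FPKM in WT and 0.34 and 0.53 FPKM in KO. The groups did not overlap, again with WT replicate 2 and KO replicate 2 side by side. The log2 fold change was -0.67 (SE 0.27, limma adjusted p = 0.099), and without KO replicate 1 it was -0.41 (limma adjusted p = 0.379).

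*Zscan4d*, whose exons are the most distinct of the copies, was at 0.45, 0.27 and 0.52 FPKM in WT and 0.23 and 0.29 FPKM in KO. Here the groups overlapped, because WT replicate 2 was below KO replicate 2. The log2 fold change was -0.48 (SE 0.26, limma adjusted p = 0.188).

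*Zscan4b* was at 0.65, 0.28 and 0.53 FPKM in WT and 0.25 and 0.48 FPKM in KO, also with overlapping groups. Its log2 fold change of -0.32 (SE 0.36, limma adjusted p = 0.503) turned to 0.04 without KO replicate 1, and was -0.69 without KO replicate 2, -0.61 without WT replicate 2 and -0.12 without WT replicate 1. As the copies share much of their sequence, the 4 expressed members were also summed, a step chosen after their values were seen. The sum was 2.77, 1.68 and 3.14 FPKM in WT and 1.18 and 1.88 FPKM in KO. The KO mean was thus 0.60 of the WT mean (1.53 ± 0.50, n = 2, against 2.53 ± 0.76 FPKM, n = 3, SD), while WT replicate 2 was below KO replicate 2, so that the groups overlapped.

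**Figure D2:**
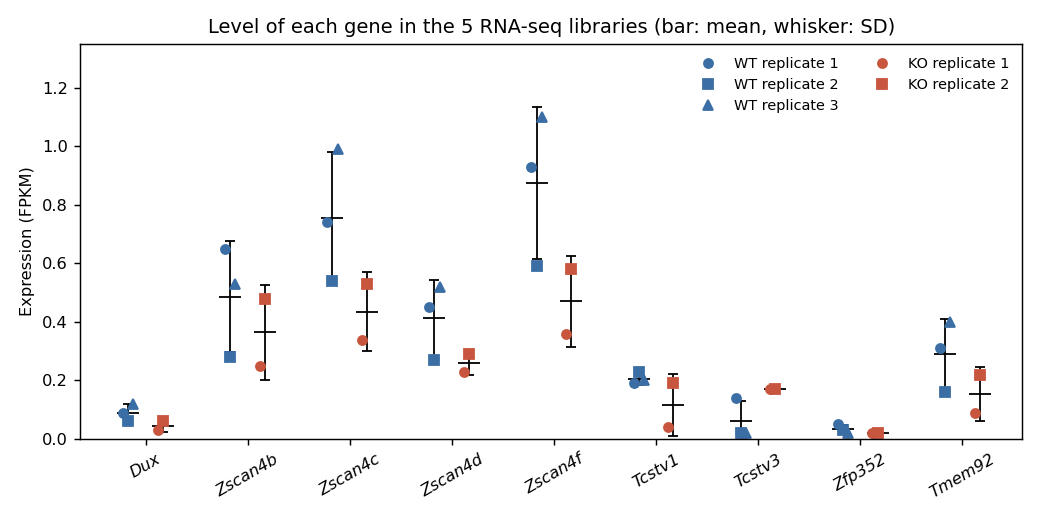
FPKM (y axis) of the 9 genes with a row in the table, with the 3 WT libraries in blue and the 2 KO libraries in red, bars for the means and whiskers for the SD. *Zscan4f* spans 0.59 to 1.10 FPKM in WT and 0.36 to 0.58 FPKM in KO, and *Dux* and *Zfp352* stay at or below 0.12 FPKM.

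*Tcstv1* and *Tcstv3* are a pair of related genes on chromosome 13 (chr13:119893388-119894785 and chr13:120316878-120318178), whose transcripts were 78.1% identical over 896 aligned positions. *Tcstv1* was at 0.19, 0.23 and 0.20 FPKM in WT and 0.04 and 0.19 FPKM in KO. KO replicate 1 alone was low, with an estimated 3 fragments against 13 to 17 in the other libraries, and KO replicate 2 had the same value as WT replicate 1. The log2 fold change was -0.60 (SE 0.33, limma adjusted p = 0.194). Without KO replicate 2 it was -1.13 (limma adjusted p = 0.028), and without KO replicate 1 it was -0.08. Either fit has a single KO library, which is assumed to vary as the WT libraries do, so that no spread between KO libraries enters it.

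*Tcstv3* was the member whose level was higher in KO, at 0.14, 0.02 and 0.02 FPKM in WT against 0.17 in both KO libraries. Both KO values lay above all WT values, with an estimated 7 fragments each against 6, 1 and 1. The log2 fold change was 0.84 (SE 0.36, limma adjusted p = 0.113). The pair summed to 0.33, 0.25 and 0.22 FPKM in WT and 0.21 and 0.36 FPKM in KO, so that the sum showed no common direction.

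*Tmem92*, which encodes a transmembrane protein, lies on chromosome 11 (chr11:94777217-94782703, minus strand) and was at 0.31, 0.16 and 0.40 FPKM in WT and 0.09 and 0.22 FPKM in KO. The groups overlapped through WT replicate 2. The log2 fold change was -0.61 (SE 0.36, limma adjusted p = 0.223), and it was -0.23 without KO replicate 1 and -0.99 without KO replicate 2, neither called. The 1226 tested genes of chromosome 11 had a median of -0.47, and with the median of each chromosome subtracted the value for *Tmem92* was -0.13. *Zfp352*, a zinc finger gene derived from a retrogene on chromosome 4 (chr4:90218820-90225702, plus strand), was at 0.05, 0.03 and 0.02 FPKM in WT and 0.02 FPKM in both KO libraries, with at most an estimated 6 fragments. The exact two-sided permutation p was 0.4, where that test cannot go below 0.1, and without a filter on low values the log2 fold change was -0.15 (limma adjusted p = 0.499).

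Of the 7 members that passed the filter on low values, 0 were called by limma at an adjusted p under 0.05, where 41.1% of all 14612 tested genes were called and 31.2% of those with a mean from 0.1 to under 1 FPKM. At an unadjusted p under 0.05 the number was 2 (*Zscan4f* and *Zscan4c*), beside 50.1% of all tested genes and 40.6% of those under 1 FPKM. The log2 fold change was below 0 in 6 of the 7, beside 51.6% of all tested genes, with a median of -0.60 beside -0.01. Both KO libraries were below all WT libraries in 2 members and above them in 1, which compares with 33.1 and 30.3% of all tested genes and with 36.9 and 17.8% of those under 1 FPKM, and the groups overlapped in 4. *Dux* and *Zfp352* are outside these counts, with a mean under 0.1 FPKM, and *Zscan4e* has no value. The shares of called genes are those of this limma fit. The paper reported far fewer genes as altered between KO and WT, by a test that is not given in the sources used here.

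The order of WT means was *Zscan4f* (0.87), *Zscan4c* (0.76), *Zscan4b* (0.49), *Zscan4d* (0.41), *Tmem92* (0.29), *Tcstv1* (0.21), *Dux* (0.09), *Tcstv3* (0.06) and *Zfp352* (0.03 FPKM). Neighbours in this order overlapped in their WT libraries except for *Tcstv1* and *Dux*. The same order held for the KO means in the first 4 positions, and *Tcstv3* (0.170) then stood above *Tmem92* (0.155) and *Tcstv1* (0.115 FPKM).

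The range of the WT libraries exceeded the difference between the genotype means in 6 of the 7 tested members, with *Tcstv1* as the exception. KO replicate 1 was the lowest of the 5 libraries in 6 of the 7 tested members, which was the case for 20.2% of all tested genes and 27.5% of those under 1 FPKM. WT replicate 2 was the lowest of the WT libraries in 5 of 7, beside 38.6% of all tested genes and 42.4% of those under 1 FPKM. In *Tcstv1* the lowest WT library was replicate 1, and in *Tcstv3* replicates 2 and 3 were tied. Each tested *Zscan4* copy entered these counts, and the counts of calls above, as a gene of its own. The copies may share reads, so the counts are not of separate observations and are a description only.

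**Figure D3:**
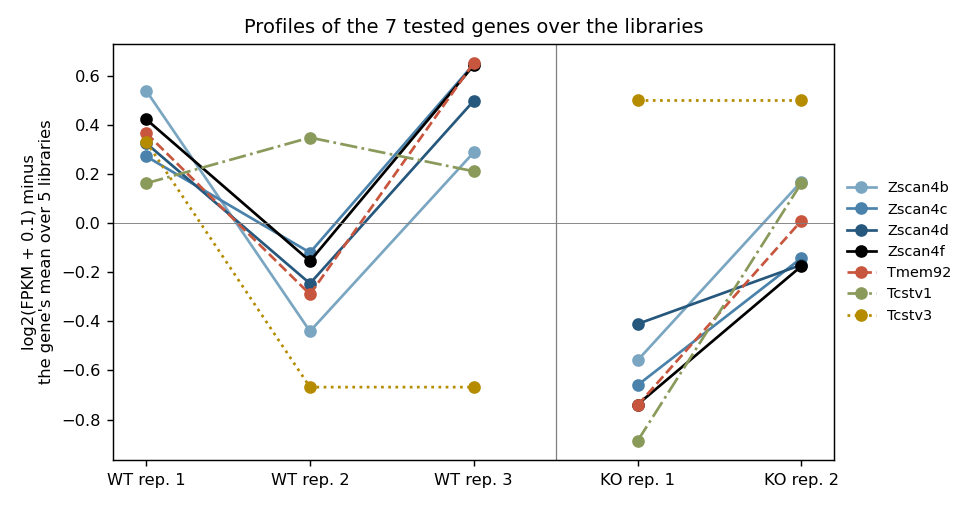
log2(FPKM + 0.1) of the 7 tested genes in each library, after subtraction of the gene's mean over the 5 libraries (y axis). Lines link the libraries of 1 gene within a genotype and mark no order. The 4 *Zscan4* genes and *Tmem92* share their low points in WT replicate 2 and KO replicate 1, and *Tcstv3* (dotted) lies elsewhere.

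Likeness to *Zscan4f*, the member with the highest mean, was measured as the Euclidean distance between centred log2(FPKM + 0.1) profiles over the 5 libraries. Among 14611 other genes, the nearest 5 were *Col13a1* (distance 0.165), *Olfr316* (0.173), *Zscan4c* (0.177), *Anks6* (0.181) and *Myl2* (0.191). *Col13a1* was at 0.72, 0.47 and 0.82 FPKM in WT and 0.31 and 0.44 FPKM in KO, and the other 3 genes outside the *Zscan4* family were at or below 0.25 FPKM. *Tmem92* ranked 12, *Zscan4d* 40, *Zscan4b* 499, *Tcstv1* 2017 and *Tcstv3* 13738. With 5 libraries many genes have a like profile by order alone, and these distances are a description.

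Further genes of the two-cell programme were taken from a list of 28, of which 25 had a row and 16 were tested. They comprise *Zscan4a*, the *Usp17l* deubiquitinases, the BTB-domain genes *Tdpoz1* to *Tdpoz5* and the *Eif1a*-like genes. One of the 16 was called, lower in KO, beside 22.3% of all tested genes called in this direction. It was *Gm5662*, an *Eif1a*-like gene and the most highly expressed of the list, at 1.67, 1.02 and 1.66 FPKM in WT and 0.48 and 0.90 FPKM in KO. Its groups did not overlap, and the log2 fold change was -0.99 (SE 0.30, limma adjusted p = 0.042). The call was lost without WT replicate 1, WT replicate 3 or KO replicate 1 (limma adjusted p = 0.114, 0.118 and 0.196), and without the last, with a single KO library, the value was -0.60. It was also lost without a filter on low values, without the variance trend and with a replicate block, the replicate number as a covariate (limma adjusted p = 0.186, 0.077 and 0.162). With the median of each chromosome subtracted, *Gm5662*, which lies on chromosome 12, was at -1.37 and called (limma adjusted p = 0.016). The 4 *Eif1a*-like genes *Gm2016*, *Gm2022*, *Gm5662* and *Gm8300*, which are related copies, summed to 3.34, 1.89 and 3.01 FPKM in WT and 1.02 and 1.93 FPKM in KO. WT replicate 2 was again the lowest WT library and KO replicate 1 the lowest of all, and the groups overlapped. *BB287469* and *Gm5039*, also on chromosome 12 and named after their values were seen, were not in the sum. KO replicate 1 was lowest in *BB287469* (0.22 FPKM), and WT replicate 2 in *Gm5039* (0.43 FPKM). Of the 16 genes 10 were below 0 on the log2 scale, with values from -0.99 to 0.67 and a median of -0.27, and WT replicate 2 was the lowest WT library in 13, beside 38.6% of all tested genes. KO replicate 1 was the lowest of the 5 libraries in 6 of the 16, beside 20.2% of all tested genes and 27.5% of those under 1 FPKM. *Zscan4a*, which is annotated as a pseudogene and was named after its values were seen, was at 0.51, 0.24 and 0.44 FPKM in WT and 0.25 and 0.47 FPKM in KO. Its groups overlapped, and the log2 fold change was -0.11 (SE 0.33, limma adjusted p = 0.816), with 0.24 without KO replicate 1 and -0.46 without KO replicate 2, neither called.

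The factors listed as acting upstream of these genes were all expressed well above 1 FPKM, and 16 of 24 passed the test. The number was 10 without KO replicate 2, a fit with a single KO library, 12 without a filter on low values and 7 with the replicate block. Of 5 genes listed as activators of the two-cell programme, limma called 3 lower and 1 higher in KO, beside 22.3% of all tested genes called lower and 18.8% called higher. *Dppa2* and *Dppa4*, which encode partner proteins that bind the *Dux* promoter, fell from 43.2, 44.5 and 46.2 FPKM to 32.6 and 32.1 FPKM and from 27.8, 26.4 and 27.6 FPKM to 21.6 and 21.1 FPKM. In both genes every KO value was below every WT value. The log2 fold changes were -0.46 (SE 0.04, limma adjusted p = 7.1e-04) and -0.35 (SE 0.04, limma adjusted p = 0.0016).

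*Trp53*, which encodes p53, had a log2 fold change of -0.56 (limma adjusted p = 4.5e-04), from 112.4 to 113.2 FPKM in WT to 79.1 and 74.4 FPKM in KO. It lies on chromosome 11 as *Tmem92* does, and with the median of each chromosome subtracted it was at -0.07 and not called (limma adjusted p = 0.253). *Tbx3*, a T-box factor of ES cells, rose from 25.2 to 29.6 FPKM in WT to 34.9 and 45.3 FPKM in KO, a log2 fold change of 0.58 (SE 0.12, limma adjusted p = 0.013). Without KO replicate 2 it was 0.39 and not called (limma adjusted p = 0.052, with a single KO library), and the call was also lost without a filter on low values and with the replicate block (limma adjusted p = 0.098 and 0.069).

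Of 19 genes listed as repressors of the programme, 7 fell and 5 rose by the limma test, beside 22.3% of all tested genes called lower and 18.8% called higher, and the median log2 fold change was -0.01. *L3mbtl2*, a subunit of the Polycomb complex PRC1.6, fell from 20.1 to 21.3 FPKM in WT to 15.1 and 14.8 FPKM in KO (log2 fold change -0.46, limma adjusted p = 9.4e-04). *Rif1*, which acts at telomeres and in replication timing, and *Atf7ip*, the partner of the H3K9 methyltransferase SETDB1, had smaller differences of -0.25 each (limma adjusted p = 0.0024 and 0.018), and *Atf7ip* was not called without WT replicate 2, WT replicate 3 or KO replicate 1, without a filter on low values, without the variance trend or with the replicate block (limma adjusted p from 0.057 to 0.090). With the median of each chromosome subtracted, *Atf7ip* was at -0.41 and called (limma adjusted p = 0.0044). *Lin28a*, which encodes an RNA-binding protein, rose from 18.1 to 20.5 FPKM in WT to 36.8 and 33.7 FPKM in KO (0.89, limma adjusted p = 5.7e-04). *Ehmt2*, which encodes an H3K9 methyltransferase, rose by 0.33 (limma adjusted p = 0.0020). *Ncl*, the nucleolin gene and the most highly expressed of the list, differed by 0.04 with an interval of -0.05 to 0.13 (limma adjusted p = 0.405). Neither list moved in one direction as a whole.

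**Figure D4:**
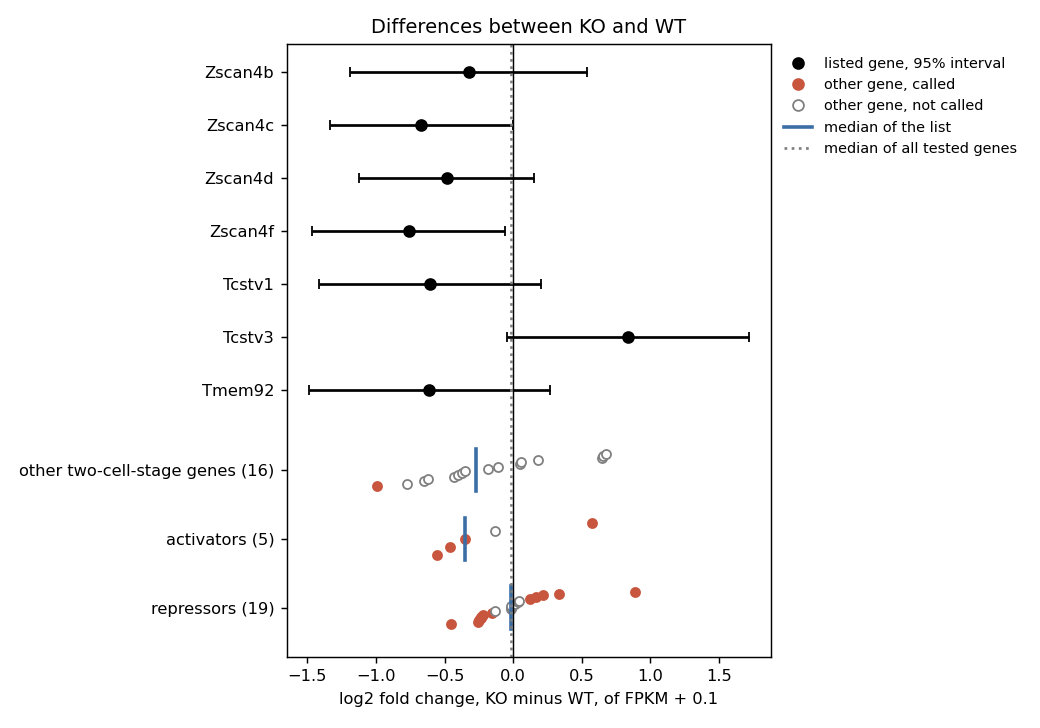
log2 fold change (KO minus WT, of FPKM + 0.1) of the 7 tested members with 95% intervals from limma (black), and of the 16 other two-cell-stage genes, 5 activators and 19 repressors (points, red where called). The intervals of the members include 0 except for *Zscan4f* (-1.46 to -0.06) and *Zscan4c*, whose upper limit is just below 0, and neither passed after adjustment.

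Besides the peak over *Dux*, no ZFP57 peak lay within 20 kb of a member. In the *Zscan4* cluster of 819.9 kb there were 3 peaks, or 3.66 per Mb compared with 0.536 per Mb on chromosome 7 and 0.522 per Mb on all chromosomes. The nearest was 21.9 kb from *Zscan4e*, and the other 2 were 35.5 and 41.8 kb from *Zscan4b*. A further peak lay 18.2 kb from the pseudogene *Zscan4a*, outside the cluster. None of the 4 was in the hybrid list. Peaks nearest to *Zfp352*, *Tcstv1*, *Tcstv3* and *Tmem92* were 1497.3 kb away or more. The sequences around TGCCGC (in capitals) in the 4 peaks, on the strand of the hexanucleotide, were as follows.
Peak 18.2 kb from Zscan4a, chr7:10775916-10775941, plus strand: aataagctttTGCCGCagaagattcc
Peak 35.5 kb from Zscan4b, chr7:10940685-10940710, minus strand: tggagagctgTGCCGCgagcaatcgg
Peak 41.8 kb from Zscan4b, chr7:10946922-10946947, minus strand: aggtccgcagTGCCGCaatggtggtg
Peak 21.9 kb from Zscan4e, chr7:11332727-11332752, minus strand: tggagagctgTGCCGCgagcaatcgg

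The stretches of the peaks at 35.5 kb from *Zscan4b* and at 21.9 kb from *Zscan4e* were identical, and both peaks agreed at 237 of 240 aligned positions (98.8%), so that they are copies of one sequence and not separate observations. The number of peaks per Mb given for the cluster counts both of them. Between 47.9 and 89.9% of the bases of the 4 peaks were marked as repeats, compared with 8.2% in the peak over *Dux*. TGCCGC occurred in none of the 6 member promoters, and in 11.6% of all 32851 promoters of 300 bases. The search covered both strands, and no match says only that these letters are not in this window.

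**Figure D5:**
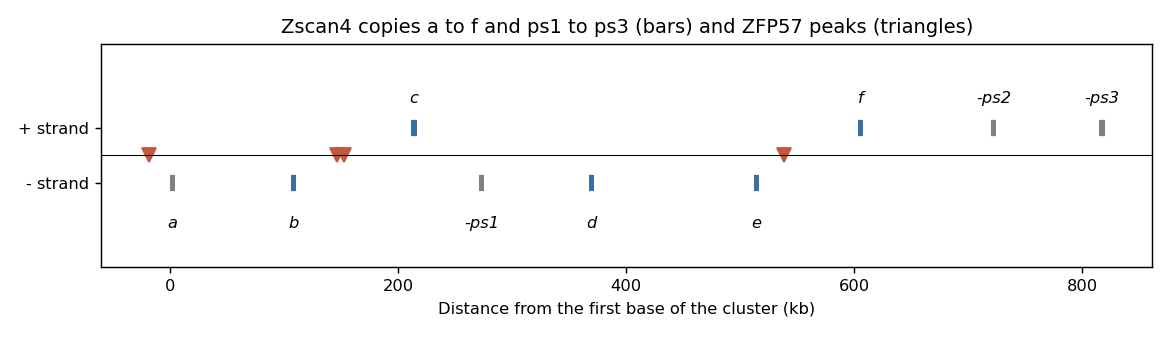
Map of the *Zscan4* cluster, with the distance in kb from its first base on the x axis, members in blue, further copies in grey, strands above and below the line, and ZFP57 peaks as triangles. The peaks fall between genes, 21.9 kb from *Zscan4e* at the closest member.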

How the data were processed

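Gene expression was deposited by the authors as FPKM (fragments normalised to library size and transcript length), rounded to 2 decimals, in a table of the 5 RNA-seq libraries. ZFP57 peaks were deposited by the authors as mm10 positions, called in at least 2 of 3 WT replicates from uniquely aligned reads. The submitters' processing notes list STAR 2.5.2, BWA 0.6.2, MACS2 2.1.0, Trim Galore 0.2.7, FastQC 0.11.5 and Picard, without their roles. The counting and the annotation behind the FPKM are not given in the sources used here.

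Genes whose mean reached 0.1 FPKM entered the test on log2(FPKM + 0.1), a scale that understates the change of low genes, with limma 3.58.1 (eBayes with trend, R 4.3.3), Benjamini-Hochberg adjustment over 14612 genes and a threshold of 0.05. The p-values measure the spread between these libraries. The script was tested on simulated data. Members below the filter had an exact permutation test. The FPKM step of 1 fragment came from small RNA genes with RefSeq lengths, of whose values 89.9 to 95.3% lay within 0.1 of a whole number of fragments (20% by chance). Positions and exons are from GENCODE M21, sequences from GRCm38 and RefSeq promoters (250 bases before to 50 after the start). Python 3.11.15, Biopython 1.88 and scipy 1.17.1 were used.

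The members and all gene lists were chosen with earlier results of these data known. Named were all members with a row, and of the lists of other two-cell-stage genes, activators and repressors those called with a mean of 1 FPKM or more (at most the 5 with the largest log2 fold change in size) and the gene with the highest mean. For likeness the nearest 5 genes were named, and *Zfp57* as the targeted gene. Alternatives covered pseudocounts, filters, scaling, chromosome medians, the variance trend, a replicate block, single libraries, windows and the hybrid list. KAP1, H3K9me3 and the hybrid ES cell libraries were not used here. The depth of the ChIP-seq libraries is unknown.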

Additional observations from a re-analysis of the deposited data

How the results depend on the processing

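The number of called members was 0 under every pseudocount, scaling, variance setting and filter tried, and 0 to 1 when single libraries were left out (*Zscan4f* without WT replicate 2 and *Tcstv1* without KO replicate 2, a fit in which the lone KO library is assumed to vary as the WT libraries do). A filter at a mean of 1 FPKM left no member to test. Of the other two-cell-stage genes, 1 was called, which became 0 without a filter on low values, 0 without the variance trend, 3 with the median of each chromosome subtracted and 0 to 2 when single libraries were left out. Activators and repressors called together numbered 16, and 12 without a filter on low values, 11 without the variance trend and 10 to 15 when single libraries were left out. Replicate numbers are shared by WT and KO, but same-numbered libraries did not deviate together (correlations of -0.07 and -0.04 across genes), so that they share a number only. With the replicate block, 0 members, 0 other two-cell-stage genes and 7 activators and repressors were called. *Trp53* lost its call with the median of each chromosome subtracted. A window of 50 kb gave 3 members with a peak in place of 1, and the hybrid list gave 0 peaks in the *Zscan4* cluster in place of 3. The causes were not tested, other than that fewer libraries and, without the filter, more genes entered these fits. Depth limits the precision of *Dux*, *Tcstv3* and *Zfp352*, each at an estimated 12 fragments or fewer per library.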

Other observations

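Outside the lists, and chosen after their values were seen, a few further homeobox genes and a PRAME family gene of early embryos were called lower in KO by limma. *Duxbl1*, a double homeobox relative of *Dux* on chromosome 14, was at 1.62, 2.01 and 1.89 FPKM in WT and 0.61 and 0.20 FPKM in KO, a log2 fold change of -2.07 (SE 0.35, limma adjusted p = 0.0055). *Duxbl2* and *Duxbl3* carried identical values to each other in every library (log2 fold change -2.02, limma adjusted p = 0.0068) and may share reads with *Duxbl1*. *Obox6*, an oocyte-type homeobox gene on chromosome 7, was at 14.5, 10.9 and 14.2 FPKM in WT and 1.92 and 0.96 FPKM in KO, a log2 fold change of -3.17 (SE 0.27, limma adjusted p = 6.7e-04). *Pramel7*, which is active in the inner cell mass, was at 2.02, 0.91 and 1.34 FPKM in WT and 0.16 and 0.12 FPKM in KO (-2.61, SE 0.31, limma adjusted p = 0.0017). They were picked because they were lower in KO, as 22.3% of all tested genes were by the same test.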
